A study of Mus musculus with 21 samples.

Results

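The gastric-like classical subtype genes are 10 genes, Tff1, Tff2, Tff3, Ctse, Lgals4, Agr2, Anxa10, Vsig1, Muc1 and Cldn10, taken by their symbols from a table of 34478 mouse genes, all 10 of which were found there. RNA-seq was performed on 6 primary cell lines, #3, #4, #6, #7, #9 and #10, each grown from a spontaneous pancreatic ductal adenocarcinoma (PDAC) of a mouse with the alleles Ptf1awt/Cre and Trp53loxP/loxP, in which Cre driven from the pancreatic Ptf1a locus deletes Trp53. Parental cells had never received drug, and resistant cells had been adapted to, and were kept in, 100 times the IC50 of their line of trametinib, an inhibitor of the kinase MEK. P12 cells had then been passaged 12 times without drug. All 6 lines were sequenced in these 3 states (n = 6 each), and P5 cells, labelled as 5 drug-free passages, in lines #3, #7 and #9 (n = 3), although the description of P5 in lines #7 and #9 gives 12 passages. There is at most 1 sample of a line in a state, so replication is across lines, and whether a line by itself differs between states cannot be tested. Every group shares the genotype with its Trp53 deletion, and resistant, P5 and P12 cells share a history of drug.

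Human and mouse PDAC fall into a classical subtype, which keeps epithelial and foregut gene expression, and a basal-like or quasi-mesenchymal subtype, which has lost it. Many classical genes are those of the stomach lining: trefoil factors and mucins are secreted by or coat surface mucous cells, and cathepsin E, annexin A10 and the junction protein VSIG1 are abundant in the stomach and scarce in normal pancreas. Such genes are switched on early in pancreatic neoplasia, whose lesions often resemble gastric pit epithelium.

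Where the members lie in the genome is given in the build of the table, mm10. The trefoil genes Tff1, Tff2 and Tff3 form a cluster on the minus strand of chromosome 17, from base 31125306 to base 31165277 (39972 bases). Ctse lies on chromosome 1 (131638306 to 131675505), Muc1 on chromosome 3 (89229057 to 89233381), Lgals4 on chromosome 7 (28833854 to 28841708), Anxa10 on chromosome 8 (62057042 to 62123150), Agr2 on chromosome 12 (35992907 to 36004087), Cldn10 on chromosome 14 (118787908 to 118875489) and Vsig1 on the X chromosome (140907608 to 140939472). Tff1, Ctse, Lgals4, Anxa10, Vsig1 and Muc1, the members called lower in resistant cells in at least 1 fit (below), are therefore spread over 6 chromosomes. They do not form a common block.

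The 250 bases before the start site are shown for the 4 members whose levels in resistant cells were called lower in at least 1 fit and for which RefSeq gives a promoter (GRCm38.p6, 5′ to 3′ along the gene), so that what they share and do not share can be read. Capitals mark matches, on either strand, to 7 short motifs of factors that act in foregut epithelium, in its loss or below MEK: AP-1 (TGANTCA), the GATA factors (AGATAA), the FOXA factors (TGTTTNC), the core of the HNF4 site (CAAAGT), the CDX factors (TTTATNG), the E-box bound by ZEB and SNAI repressors (CACCTG) and the ETS factors (CCGGAAG). The motifs are short and do not overlap here.
Anxa10 (chr8:62123194-62123443, - strand): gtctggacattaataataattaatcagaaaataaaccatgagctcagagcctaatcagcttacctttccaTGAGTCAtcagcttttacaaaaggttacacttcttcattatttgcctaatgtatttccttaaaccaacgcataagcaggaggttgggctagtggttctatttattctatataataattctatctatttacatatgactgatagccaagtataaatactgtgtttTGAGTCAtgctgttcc
Muc1 (chr3:89228806-89229055, + strand): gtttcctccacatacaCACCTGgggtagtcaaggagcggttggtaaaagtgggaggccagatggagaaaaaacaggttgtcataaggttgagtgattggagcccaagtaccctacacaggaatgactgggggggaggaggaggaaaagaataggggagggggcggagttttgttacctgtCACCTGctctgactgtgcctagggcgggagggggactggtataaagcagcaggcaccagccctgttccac
Lgals4 (chr7:28833544-28833793, + strand): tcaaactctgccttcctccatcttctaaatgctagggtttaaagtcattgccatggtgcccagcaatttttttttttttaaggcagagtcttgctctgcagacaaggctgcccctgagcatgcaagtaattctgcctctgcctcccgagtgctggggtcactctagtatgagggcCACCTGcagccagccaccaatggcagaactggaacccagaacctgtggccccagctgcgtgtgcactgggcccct
Vsig1 (chrX:140907358-140907607, + strand): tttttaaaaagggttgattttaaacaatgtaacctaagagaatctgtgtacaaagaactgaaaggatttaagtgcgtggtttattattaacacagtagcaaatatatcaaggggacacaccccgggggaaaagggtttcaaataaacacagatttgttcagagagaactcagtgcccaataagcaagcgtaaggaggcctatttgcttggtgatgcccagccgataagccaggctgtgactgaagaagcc
No motif was shared by all 4. Anxa10 held 2 AP-1 matches, 180 and 16 bases before its start, against at least 1 match in 6.75% of 32851 promoters of this length. Muc1 held 2 E-box matches and Lgals4 1, against at least 1 in 17.2% of promoters, and Vsig1 held none of the 7 motifs. Among the members not shown, the Agr2 promoter held 1 FOXA match (17.8% of promoters) and 1 CDX match (9.81%). The promoter of the upstream start of Cldn10 held a GATA match (9.99%) and an HNF4 match (12.6%). No member promoter held the ETS letters (6.91%). Tff1, Tff2, Tff3 and Ctse had no promoter entry. A match is a description of letters and does not show binding.

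Values are gene counts normalized by DESeq2 size factors. Estimated from the spacing of low values, a sample held 24.0M to 42.5M counted reads, so that 3 reads, taken as the floor of detection, corresponded to 2.32 to 4.07 normalized counts. The floor covers counting error only. It is approximate, because in a sample only 55.1% to 73.9% of low values lay on the estimated steps, within 3% of a step. Duct and epithelial markers were abundant in parental cells, with a summed level over 7 genes between 18363 and 283578, although Epcam was listed at 0 in every parental, resistant and P12 sample. Acinar, endocrine and immune markers summed to at most 937, 62.6 and 75.3 normalized counts in any sample. Parental cells of line #9 stood apart before any drug, with 816 normalized counts of the adhesion gene Cdh1 against a median of 30049 over the 6 parental samples, and the calls of members between states are therefore also given without this line. More than 1 type of sequencer was used and the type is not given per sample, so a sequencing batch cannot be told apart from line or state.

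By their medians in parental cells, 6 members were abundant and 4 were scarce. Per kilobase of the longest coding transcript, which allows genes to be compared, the median level over 6 parental samples was 5423 normalized counts for Lgals4, 3168 for Muc1, 2753 for Vsig1, 2318 for Ctse, 951 for Anxa10 and 883 for Tff1. It was 62.5 for Tff2, 19.9 for Tff3, 5.78 for Agr2 and 0 for Cldn10. The ranges of all neighbours in this order overlapped, and so did those of abundant and scarce genes: Tff2 reached 1104 per kilobase in line #7, above the medians of Anxa10 and Tff1.

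Line #9 was the exception among parental samples, being below all 5 other lines for 6 of the 10 members, namely the abundant ones. The share of all genes for which this line was lowest was not computed. Low levels in this line were not confined to the members. Parental line #9 also held 50.0 normalized counts of the regulator Hnf4a, against 8546 to 15464 in the other 5 lines. For the intestinal gene Vil1 it was 10.6 against 1005 to 5694. These genes were chosen after their values were seen, and others, such as Cdx2 and Aqp5, were not lowest in line #9. How the members compare with genes at large was not tested. Among the members, the parental level of line #9 was 4.55 normalized counts for Anxa10, against 510 to 3465 in the other 5 lines. For Vsig1 it was 139 against 4730 to 9289, and for Ctse 47.8 against 1329 to 9472. Lines #7 and #10 were the richest in Tff1, with 7379 and 9904 normalized counts, while line #4 held 78.6.

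**Figure D1:**
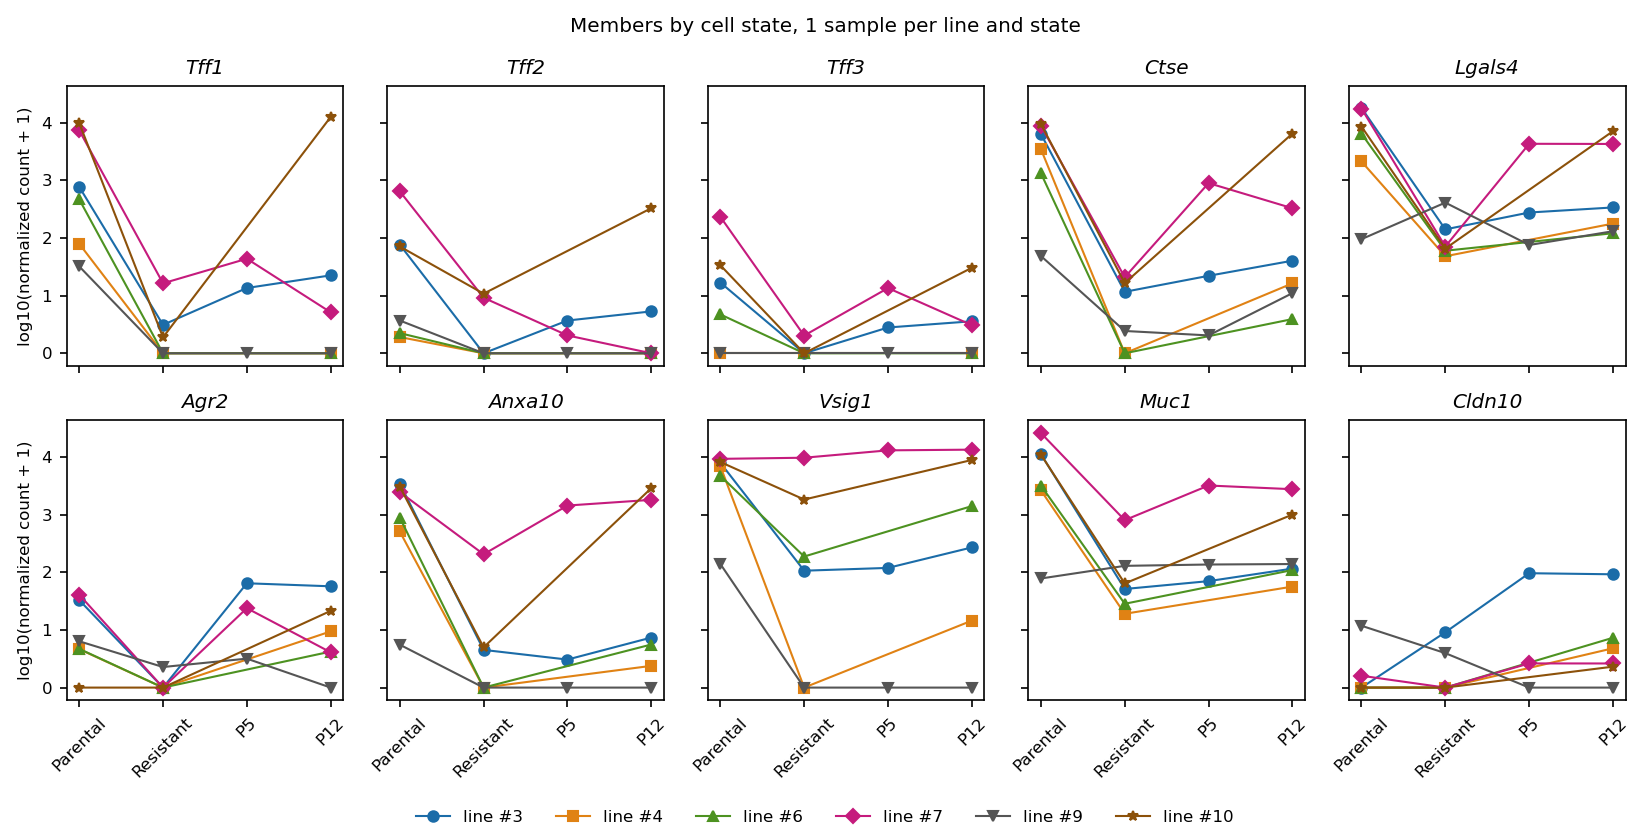
Normalized counts of each member on a log10(value + 1) scale (y axis) by cell state (x axis), with 1 point per sample and lines joining the samples of each cell line. Among parental samples, the 6 abundant members were lowest in line #9. Values were lower in resistant than in parental cells of all 6 lines for Tff1, Ctse and Anxa10. For Lgals4, Vsig1 and Muc1 they were lower in 5 of 6 lines. Without a covariate, 4 members were called. In P12 cells, values were near the parental level mainly in line #10.

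The comparison of resistant with parental cells asks whether the gastric-like program is kept under adaptation to MEK inhibition. Part of it was lower: 4 of the 10 members, Tff1, Ctse, Lgals4 and Muc1, were called lower in resistant cells, none was called higher, and the median log2 fold change of the members was -5.41, beside -0.0049 over all 19300 genes tested. A gene was called when limma gave a Benjamini-Hochberg adjusted p under 0.01 and a log2 fold change beyond 1 on log2(normalized count + 1). Of all genes tested, 2.73% were called lower in this way and 2.57% higher. Since the same 6 lines were sampled in both states, the line was also entered as a block: Anxa10 and Vsig1 were then called as well, 6 members in all, where 5.6% of all genes were called lower and 4.85% higher. In a bulk sample, fewer cells expressing a gene and less RNA per cell cannot be told apart.

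Among the gastric protease Ctse and the trefoil genes, Ctse and Tff1 fell and Tff2 and Tff3 did not pass the test. Ctse, the intracellular aspartic protease cathepsin E of gastric surface cells, ranged from 47.8 to 9472 normalized counts with a median of 4929 in parental cells and from 0 to 19.8 with a median of 6.04 in resistant cells. The groups did not overlap, and the level was lower in resistant cells of 6 of 6 lines. The log2 fold change was -8.91 ± 1.75 (SE, limma adjusted p = 0.00222), the 8th lowest estimate among all genes tested.

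Tff1, a trefoil peptide that gastric pit cells release with mucus, ranged from 31.2 to 9904 (median 621) in parental and from 0 to 15.4 (median 0.447) in resistant cells. These groups did not overlap either, and 5 of 6 resistant samples were at or under 3 reads. The log2 fold change was -8.22 ± 1.97 (SE, limma adjusted p = 0.00874). Ctse and Tff1 were the 2 of 10 members for which every parental sample lay above every resistant sample, which held for 3.16% of all genes tested.

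The other trefoil genes moved in the same direction but did not pass the test. Tff2, the trefoil peptide of gastric neck cells, was at 75.7, 645 and 70.3 in parental cells of lines #3, #7 and #10 and at 0.913 to 2.70 in the other 3 lines, and it reached at most 9.82 in resistant cells (log2 fold change -3.18 ± 1.52, limma adjusted p = 0.170, or 0.0425 with the line as block). Tff3, the trefoil peptide best known from intestinal goblet cells, was at 15.9, 232 and 32.7 in the same 3 parental lines and at most 3.72 in the rest. No resistant sample exceeded 3 reads of Tff3, the highest value being 1.03, so that the parental mean of 47.4 was at least 14.0-fold higher than the mean floor of these samples (limma adjusted p = 0.0788, or 0.0162 with the line as block). This bound rests on line #7: without it the bound was 3.04-fold, and 2 parental samples were at 0. Both genes passed the filter on low values mainly through parental samples, 3 of which reached 10 normalized counts for each gene, against 0 resistant samples.

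The membrane mucin and the galectin fell but stayed detected. Muc1, a transmembrane mucin of glandular surfaces, ranged from 77.1 to 26061 (median 7104) in parental and from 18.1 to 802 (median 56.7) in resistant cells. The log2 fold change was -5.57 ± 1.34 (SE, limma adjusted p = 0.00875). Lgals4, a galectin that binds glycans at the surface of gut epithelium, ranged from 94.4 to 18038 (median 7506) in parental and from 47.2 to 410 (median 67.3) in resistant cells, a log2 fold change of -5.35 ± 1.31 (adjusted p = 0.00984).

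For both genes the overlap of the groups came from line #9. There Lgals4 was 94.4 in parental and 410 in resistant cells, and Muc1 was 77.1 and 128, so that both were higher in resistant cells, whereas in each of the other 5 lines they were lower by log2 differences between -5.02 and -7.95. In contrast with Tff1 and Ctse, neither gene fell to the floor in any resistant sample. Mouse Lgals4 has a near-identical copy, Lgals6, in some strains. Lgals6 has no row in the table, so reads of the pair may be counted together.

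Anxa10 was lower in resistant cells of every line and Vsig1 in 5 of 6, and both were called with the block. Anxa10, a calcium-binding annexin of gastric epithelium, ranged from 4.55 to 3465 (median 1677) in parental cells. Resistant cells of lines #4, #6 and #9 were at 0, those of #3 and #10 at 3.51 and 3.99, and those of #7 at 204. It was lower in 6 of 6 lines, with a log2 fold change of -7.29 ± 2.26 (limma adjusted p = 0.0338) that was called with the line as block (adjusted p = 0.000926).

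Vsig1, an adhesion molecule of gastric tight junctions, behaved differently in line #7. Its parental range was 139 to 9289 (median 7451). Resistant cells of line #7 held 9721 normalized counts, 105% of their parental level, and those of line #10 held 1828, or 22.3%, while lines #3 and #6 held 106 and 187 and lines #4 and #9 were at 0. The log2 fold change was -5.48 ± 2.67 (limma adjusted p = 0.179; with the line as block, adjusted p = 0.00455). Without line #7 the blocked estimate was -6.59. Without line #3, #4, #6 or #9 the blocked adjusted p was between 0.0146 and 0.0264 and Vsig1 was not called.

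Agr2 was lower in resistant cells of 5 of 6 lines without passing the test, and Cldn10 had an estimate near 0. Agr2, a disulfide isomerase of the endoplasmic reticulum that helps to fold mucins, was low everywhere: its parental values were 32.0, 3.64, 3.71, 40.0, 5.36 and 0, given by line from #3 to #10. All 6 resistant samples were at or under 3 reads, so the parental mean of 14.1 was at least 4.17-fold above the floor (log2 fold change -2.72 ± 0.97, limma adjusted p = 0.0624, or 0.0331 with the line as block). Without line #7 the parental mean was 8.95 and the bound 2.59-fold, and 2 parental samples were themselves at or under 3 reads. Cldn10, a tight junction claudin that forms ion channels between cells, was at 0 in 4 parental samples, 0.605 in line #7 and 10.8 in line #9, and it reached at most 8.12 in resistant cells, in line #3 (log2 fold change 0.15 ± 1.11, adjusted p = 0.948). It passed the filter with 3 samples, P5 and P12 of line #3 and parental cells of line #9.

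**Figure D2:**
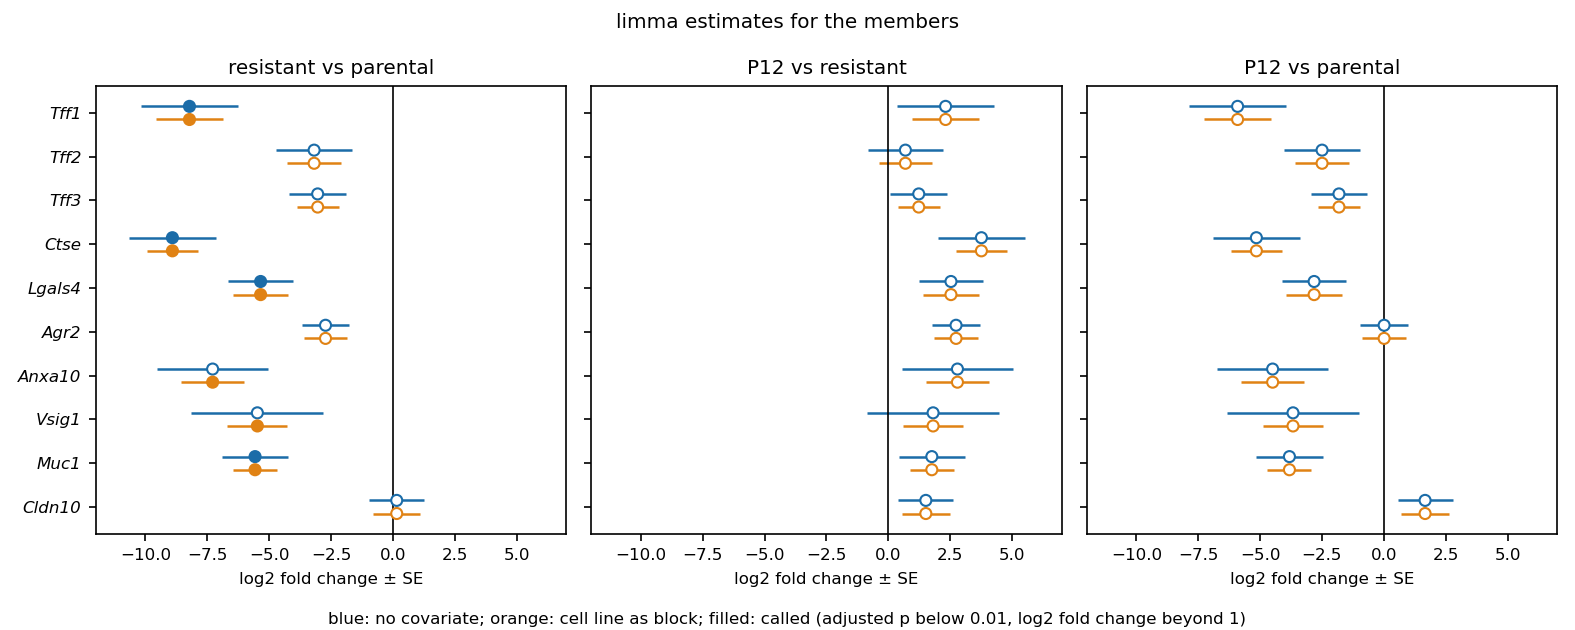
limma log2 fold changes (x axis) with their SE for each member (rows) in 3 comparisons, without a covariate (blue) and with the cell line as block (orange), with filled circles for called genes. All calls are in resistant vs parental cells, 4 without and 6 with the block.

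The number of calls without a covariate depended on the lines included. For the members it was 0 without line #3, #4 or #6, 2 without line #7 (Ctse and Muc1) or line #10 (Tff1 and Ctse), and 3 without line #9 (Ctse, Lgals4 and Muc1). Of all genes tested, 527 of 19300 were called lower with every line included. That number was 275 of 18693 without line #3, 256 of 18985 without #4 and 243 of 18984 without #6. It was 536 of 18828 without #7, 657 of 18807 without #9 and 284 of 18962 without #10. With the line as block the count of members called stayed between 4 and 5 when any line was left out. In blocked fits, 1081 of 19300 genes were called lower with every line included, and between 631 and 1053 with 1 left out. Tff1, Ctse, Anxa10 and Muc1 were called in each of those 6 blocked fits, Lgals4 only without line #9, and Vsig1 only without line #7 or #10.

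Whether the program returns after drug withdrawal was asked by comparing P12 with resistant cells. No single member passed the test: limma called 0 of 10 members, with or without the block, where 1.28% of all genes were called higher in P12 cells without and 2.52% with it. At an unadjusted p under 0.05 there were 2 members, Ctse and Agr2, and 4 with the block. The share of all genes at that looser threshold was not computed. All 10 estimates were positive, from 0.69 ± 1.52 for Tff2 to 3.76 ± 1.75 for Ctse (SE). The median over all genes tested was 0.0221, and the share of all genes with positive estimates was not computed. These signs are not separate from the lower levels against parental cells, because the same resistant samples entered both comparisons.

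In line #10 most members were near or above their parental level in P12 cells. Its Tff1 went from 9904 normalized counts in parental to 0.894 in resistant and 12599 in P12 cells, and Ctse from 9472 to 15.5 and 6488. Lgals4 (8575, 64.5 and 7131), Anxa10 (3076, 3.99 and 2882) and Vsig1 (8193, 1828 and 8880) took the same course. P12 cells of this line thus held between 68.5% and 127% of the parental level of these 5 genes. Tff2 stood above its parental level, at 328 against 70.3, and Tff3 was close to it, at 29.4 against 32.7. Muc1 was the exception: it stood at 9.1% of the parental level, 1002 of 11008 normalized counts.

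In line #7 some members stood near their parental level and others far below it. Anxa10 was at 1806 in P12 cells, 73.3% of the parental 2464, Lgals4 at 4277 (24.3%), Muc1 at 2762 (10.6%) and Ctse at 327 (3.68%), and Vsig1, which had not fallen, was at 13420. The trefoil genes stayed low. Tff1 was 15.4 in resistant, 42.7 in P5 and 4.13 in P12 cells of a line whose parental cells held 7379, and Tff2 was 8.20, 1.04 and 0. Ctse was likewise higher in P5 than in P12 cells, at 895 and 327, while Anxa10 (1439 and 1806), Lgals4 (4307 and 4277) and Vsig1 (13047 and 13420) were alike in the pair. With 1 sample per state, no error can be given for these differences, and since the P5 sample of line #7 is described as 12 passages, its order in time is uncertain.

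In P12 cells of lines #3, #4, #6 and #9 the abundant members were low. In lines #3, #4 and #6 the 6 abundant members stood in P12 cells at a median of 1.45%, 0.356% and 1.19% of their parental level. Within these lines the highest share was that of Vsig1 in line #6, at 29.8% (1407 of 4730). Tff1 was 0 in P12 cells of lines #4, #6 and #9 and 21.5 in line #3. Ctse was above its resistant value in P12 cells of 6 of 6 lines, but outside lines #7 and #10 it reached only 2.92 to 39.4. In P12 cells of line #9, whose parental levels were low, the abundant members were between 0 and 138, with Lgals4 at 138% and Muc1 at 179% of parental.

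Agr2 reached 56.2 in P12 cells of line #3, 20.4 in #10, 8.44 in #4, 3.21 in #6, 3.09 in #7 and 0 in #9, and thus above its parental value in lines #3, #4 and #10. In line #10, parental and resistant cells were both at 0. Cldn10 reached 95.4 in P5 and 91.3 in P12 cells of line #3, against 0 in its parental and 8.12 in its resistant cells, and stayed at or under 6.32 in the other P12 samples. Neither gene was called.

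**Figure D3:**
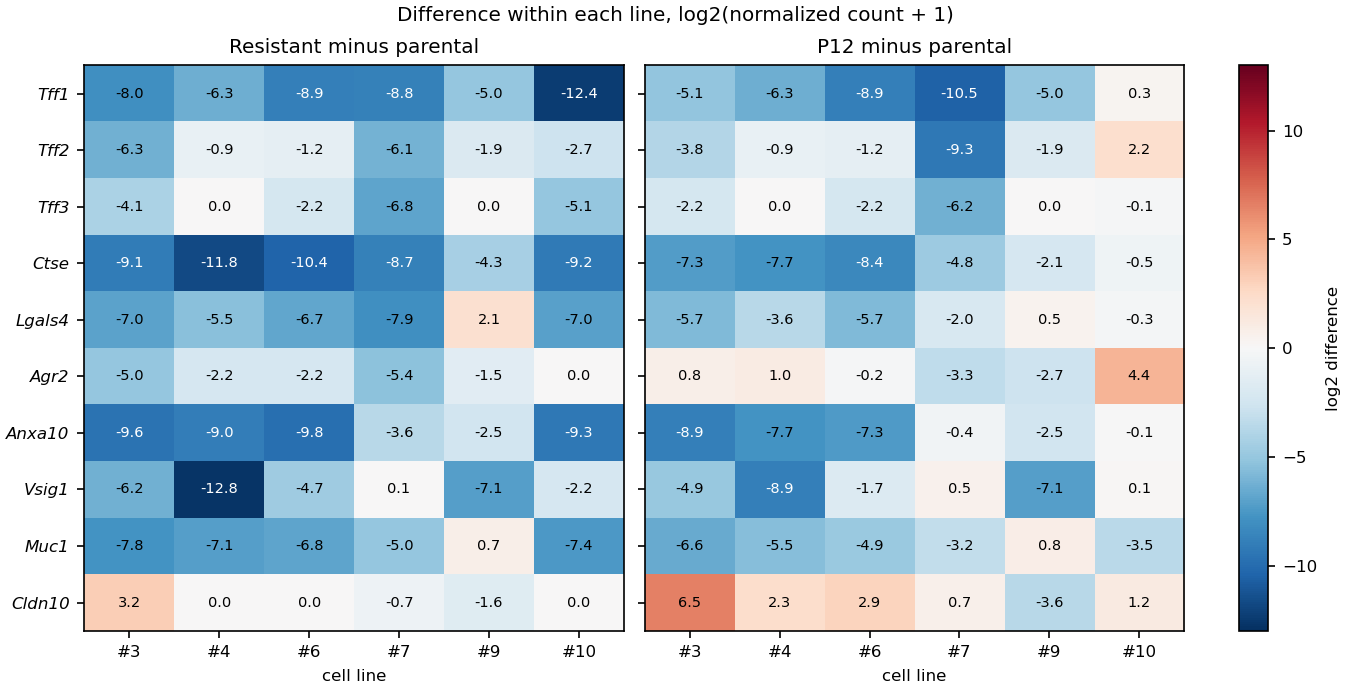
Differences of log2(normalized count + 1) within each cell line (columns) for each member (rows), resistant minus parental on the left and P12 minus parental on the right, with blue for lower and red for higher values. The left panel is blue in most rows; in the right panel line #10 is near 0 for 5 of the abundant members and at -3.5 for Muc1, while lines #3, #4 and #6 keep large deficits.

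P12 cells were also compared with parental cells. limma called 0 of 10 members lower, with or without the block, where 0.0881% of all genes were called lower without and 0.311% with it. At an unadjusted p under 0.05 there were 4 members (8 with the block). These counts cannot be set against the shares above, because the share of all genes at that looser threshold was not computed. The estimates for the abundant members ran from -2.82 ± 1.31 for Lgals4 to -5.91 ± 1.97 for Tff1 (SE), and that for Agr2 was 0.01 ± 0.97. In fits with the block, Muc1 was called lower when line #9 was left out (log2 fold change -4.74) and Tff1 when line #10 was left out (-7.16). Of all genes tested, 114 of 18807 and 18 of 18962 were called lower in these fits.

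P5 cells were available from 3 lines. limma called 0 of 10 members against resistant cells, with or without the block, where 0.29% of all genes were called higher in P5 cells without and 0.435% with it. At an unadjusted p under 0.05 there was 1 member, Agr2, and 2 with the block, again without a share of all genes at that threshold. Line #3 held 63.5 and line #7 22.8 normalized counts of Agr2 in P5 cells, against 0 in the resistant cells of both. Comparisons that use resistant cells share those 6 samples.

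Members differed in how much of their variation went with the line. In a fit of state plus line over all 21 samples, 3 of 10 members differed between lines (limma F test, adjusted p under 0.01), as did 7.92% of all genes: Vsig1 (adjusted p = 0.000872), Anxa10 (0.00616) and Ctse (0.00861). These calls depended on the samples included. Ctse was not called when any 1 line was left out, Anxa10 was not called without line #7, without line #9 none of the 3 was called and Muc1 was, and without P5 of lines #7 and #9 no member was called. Calls over all genes fell too. They were 1528 of 19300 with all samples, 501 of 18828 without line #7 and 350 of 18807 without line #9. Without P5 of lines #7 and #9 they were 436 of 19062. Over the 18 samples of the 3 complete states, the state accounted for 63.3% of the sum of squares of Ctse and the line for 26.5%. The order was the reverse for Vsig1, with 22.4% for the state and 62.7% for the line. The medians over all genes tested were 19.8% and 35.8%. Vsig1 was between 9289 and 13420 normalized counts in all 4 states of line #7 and at or under 139 in all 4 states of line #9.

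The members varied together to different degrees. Across the 21 samples, which share lines and states and are therefore not independent, Pearson's r of log2 values between the 6 abundant members ranged from 0.65 (Lgals4 and Vsig1) to 0.932 (Anxa10 and Muc1), with a median of 0.858 over 15 pairs. With the state means removed the median was 0.81. The 3 trefoil genes had r between 0.861 and 0.879 among themselves. Cldn10 had r between -0.358 and -0.113 with 8 of the other members, and 0.541 with Agr2.

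**Figure D4:**
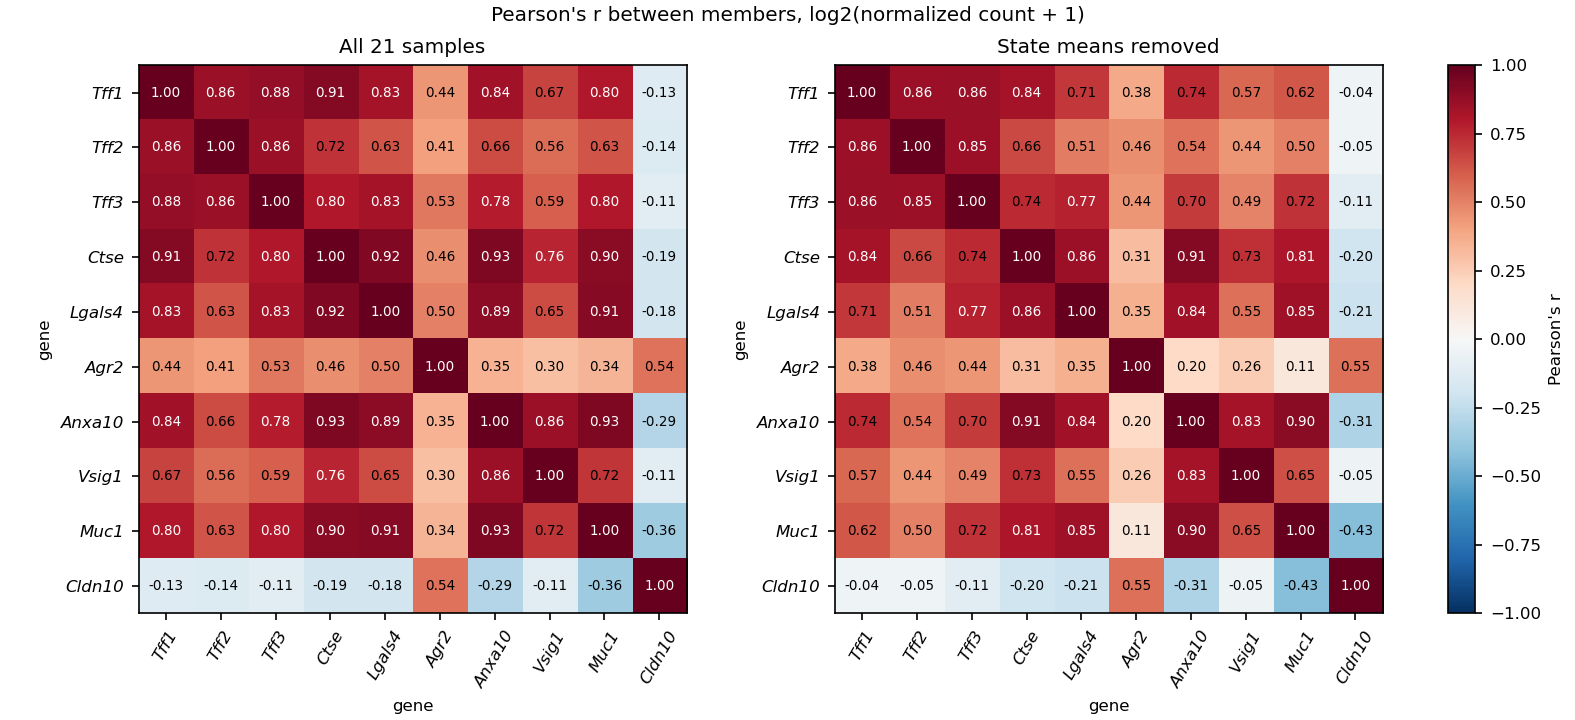
Pearson's r between members over 21 samples (left) and after subtracting the mean of each state (right), on a scale from -1 (blue) to 1 (red). In both panels r is positive between all genes other than Cldn10. Agr2 has r between 0.305 and 0.527 with the other 8 of these on the left, and between 0.114 and 0.463 on the right.

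Genes outside the set with the most similar pattern were found by the highest r with each member over the 21 samples. For Anxa10 this was Akr1c19, an aldo-keto reductase (r = 0.985), for Lgals4 Paqr5, a membrane progestin receptor (0.974), for Ctse the chloride channel protein Clic6 (0.961) and for Muc1 Smim15 (0.952). For Tff1 it was Alpi, the intestinal alkaline phosphatase (0.934), for Tff3 the predicted gene Gm43745 (0.925), for Vsig1 Smim6 (0.929), for Cldn10 the protocadherin Pcdhga1 (0.887) and for Tff2 Cyp2c70, a bile acid hydroxylase (0.879). Agr2 had the weakest best match, Bicral (0.797). Clic6 had means of 3380 normalized counts in parental and 1.99 in resistant cells, and Akr1c19 means of 1334 and 7.52. No gene was among the 3 most similar of more than 1 member.

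Among the genes around the trefoil cluster that could be tested, none was called. Of 19 annotated genes within 250 kb, 5 passed the filter on low values, and limma called none of them in resistant vs parental cells, with or without the block. The rest had values too low for the filter or no values at all, and could not be called. The lowest estimate was that of Pde9a, a cyclic GMP phosphodiesterase, at -4.22 ± 1.10 (SE, adjusted p = 0.0140), and Rsph1 had a positive estimate of 2.13 ± 0.98 (adjusted p = 0.152). The antisense gene Gm15318, which overlaps Tff1 on the opposite strand, had parental values from 0 to 29.5 and was at 0 in all resistant samples. It did not pass the filter.

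Other genes of stomach and gut were examined through 7 lists, in the comparison of resistant with parental cells. Counts at an unadjusted p under 0.05 have no share of all genes beside them, which was not computed. Of 10 tested gastric pit cell genes, limma called 0 (3 at an unadjusted p under 0.05), and 3 were called lower with the block: the secreted mucin Muc5ac (-6.66 ± 1.55, SE of the blocked fit), the sphingolipid synthesis subunit Sptssb (-4.68 ± 0.77) and the sulfotransferase Sult1c2 (-4.19 ± 0.95). Cldn18, the claudin of stomach, had the highest parental mean of the list through line #7 alone, while its parental median of 97.9 was below the 214 of Muc5ac. Its value in line #7 was 24997 in parental, 22978 in resistant and 22820 in P12 cells, against at most 204 in any other parental sample. The median log2 fold change of the list was -2.40.

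Of 6 tested genes of neck, chief, parietal and endocrine cells, 1 was called lower, the water channel Aqp5 (-7.48 ± 1.58, SE, limma adjusted p = 0.00367). With the block 3 were, adding the proton pump subunit Atp4a and the gland mucin Muc6. Of 12 tested intestinal and goblet cell genes, 3 were called lower: the intestinal homeobox factor Cdx2 (-8.99 ± 0.85), the brush border cadherin Cdhr5 (-6.67 ± 1.42) and the antigen Gpa33 (-3.82 ± 0.83). With the block 7 were, adding Cdh17 (parental mean 11626 normalized counts), Vil1, Krt20 and Fabp2. Cdx2 was also called higher in P12 than in resistant cells (6.11 ± 0.85, adjusted p = 0.000310), unlike any member.

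Of 12 tested mucin and mucin glycosylation genes, 1 was called lower and 1 higher. Galnt3, which starts mucin O-glycans, was lower (-7.51 ± 1.42, SE, limma adjusted p = 0.00169), and with the block Galnt7, Gcnt3 and B3gnt3 were as well. Muc16, a large membrane mucin, was higher (9.17 ± 1.96, adjusted p = 0.00400): its resistant values were 15371, 17388, 13056, 2917, 0 and 1492 in lines #3, #4, #6, #7, #9 and #10, and no parental sample exceeded 8.51. Muc1 and Muc16 thus differed in direction in 5 of the 6 lines, line #9 being apart for both. In P12 cells Muc16 was at 1567 in line #6 and at most 14.3 in the other 5 lines.

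Of 19 tested foregut and gastric regulators, 3 were called lower: Pdx1 (-6.78 ± 1.43, SE, limma adjusted p = 0.00362), Foxa3 (-4.52 ± 1.05, adjusted p = 0.00700) and Klf5 (-3.77 ± 0.82, adjusted p = 0.00477). With the block 7 were, among them Hnf4a, Elf3 and Hnf4g. Of these factors Pdx1 patterns foregut and pancreas and Hnf4a directs gut and liver epithelium. Onecut2 (parental mean 12946 normalized counts) was not called. Hnf4a in P12 cells was 11090 in line #7 and 7353 in line #10 and at most 414 in the other lines. Lines #7 and #10 were also the highest of the P12 samples for Anxa10 and Lgals4, whereas Tff1 and Tff2 were lower in line #7 (4.13 and 0) than in line #3 (21.5 and 4.33). These lines were likewise highest for Cdh1, Cdh17, Vil1 and Gcnt3, so this is not particular to Hnf4a. For Pdx1, line #3 (664) exceeded line #10 (547). A link between Hnf4a and the members was not tested.

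In the other lists few genes were called. The counts here at an unadjusted p under 0.05 cannot be read as a result about these lists, because the share of all genes was not computed. Even at an adjusted p under 0.05, limma called 2190 of 19300 genes. Of 6 tested secretory folding genes, limma called 0 (2 at an unadjusted p under 0.05), and the kinase Ern2 of mucous cells was called lower with the block (-5.27 ± 1.13, SE). Ern1 (parental mean 3551 normalized counts) was not called. Of 17 tested other galectins and annexins, limma called 0 (8 at an unadjusted p under 0.05) and 2 with the block, Anxa4 (-1.57 ± 0.33) and Anxa9 (-1.06 ± 0.27). Anxa2 (parental mean 51299 normalized counts) had an estimate of -0.88 ± 0.33 and did not pass. The median of this list was -0.63, beside -7.29 for Anxa10 and -5.35 for Lgals4.

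**Figure D5:**
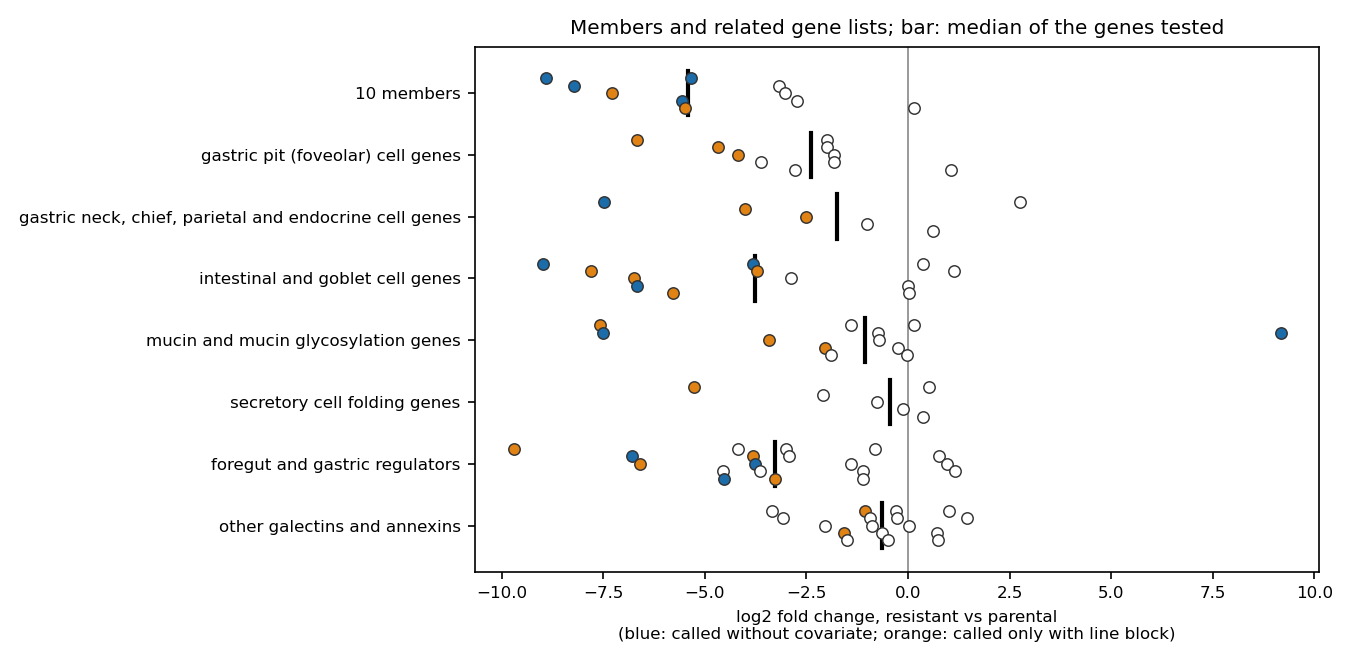
log2 fold changes of resistant vs parental cells (x axis) for the members and the tested genes of 7 related lists (rows), with blue for genes called without a covariate, orange for those called only with the line as block, white for the rest and a bar at each median. The members, chosen with earlier results of these data known, have the lowest median of the rows shown, -5.41. The next are the intestinal and goblet cell genes at -3.77 and the foregut and gastric regulators at -3.27. The isolated point at 9.17 is Muc16.

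Markers of other cell types were compared in the same samples. Of 7 mesenchymal markers, 2 were called higher in resistant cells, the cadherin Cdh2 (1.77 ± 0.31, SE, limma adjusted p = 0.000894) and Sparc (5.21 ± 1.18, adjusted p = 0.00596), and the summed level of the list ranged from 66979 to 271221 in parental and from 160946 to 611969 in resistant cells. Of 6 tested duct and epithelial markers, Sox9 was called lower (-3.06 ± 0.62, adjusted p = 0.00290), and Cdh1, Krt8 and Krt18 were as well with the block. Sox9 was called higher again in P12 cells (3.84 ± 0.62). Of 6 fibroblast markers, 5 were tested and only Col1a1 was called, with the block (5.19 ± 1.11), and the list summed to 92.3 to 10428 in parental and 466 to 503727 in resistant cells. Of 4 endothelial markers 1, Tek, was called higher in resistant cells (5.90 ± 1.14, adjusted p = 0.00200). The part of any of these in the members' results was not tested.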

How the data were processed

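RNA was sequenced from 6 mouse PDAC cell lines in 4 states (21 samples). Per the submitters' processing notes and methods, the authors converted reads with CASAVA 2.17 and bcl2fastq 2.19, trimmed them with Skewer, estimated transcript abundance with Salmon 0.12 (build mm10), brought it to gene level in TXImport and applied the size factors of DESeq2 1.18. The deposited values are therefore normalized counts, a signal divided by size factors and not whole reads. Whole reads could not be recovered, so no count test was run.

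Values were tested as log2(value + 1) with limma 3.58.1 (R 4.3.3), with trend, in 1 fit of the 4 states without a covariate. Genes with at least 10 normalized counts in at least 3 samples were kept (19300 of 34478), p-values were adjusted by Benjamini-Hochberg over these, and a gene was called at an adjusted p under 0.01 and a log2 fold change beyond 1. Fold changes on this scale understate the change of low genes. Counts of members or list genes at an unadjusted p under 0.05 have no share of all genes beside them, which was not computed. The same line number in the labels marks the same cell line, so line was entered as a replicate block in an alternative fit. Deviations from the state means correlated within a line by a mean of 0.241 between parental and resistant, 0.457 between resistant and P12 and 0.316 between parental and P12 cells, against -0.0462, -0.0903 and -0.0645 between lines. Subtracting the state means by itself draws the values between lines below 0, so they are not an independent comparison.

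The members and lists were chosen with earlier results of these data known. Named genes were all members, their most similar genes, and in each list the called genes (up to 4 by size) and the one with the highest parental mean, which is not per length. Where a list's additional blocked calls are named, and for Cldn18, Hnf4a and Muc16 by line, genes were chosen after their values were seen. Alternatives were other pseudocounts, filters, scaling, trend and thresholds, the compared states alone, leaving out each line and leaving out P5 of lines #7 and #9. The block combined with a left-out line or with the compared states alone was added after seeing the data, as were the bounds of Tff3 and Agr2 without each line. An allele of the genotype and 1 gene of a list are not reported here.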

Additional observations from a re-analysis of the deposited data

Results flagged for a closer look

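In 10 of 30 groups of 6 samples, 1 line stood further from the rest on the log2 scale than Dixon's critical value of 0.625 allows. Chance flags about 1 in 20 groups, and the groups share lines, so these are not separate observations. Line #9 stood apart in parental cells for 4 members: Ctse was 47.8 normalized counts (nearest other line 1329), Anxa10 4.55 (nearest 510), Vsig1 139 (nearest 4730) and Cldn10, in the opposite direction, 10.8 (nearest 0.605). Line #10 stood above the others in P12 cells for the trefoil genes, with Tff1 at 12599 (nearest 21.5), Tff2 at 328 (nearest 4.33) and Tff3 at 29.4 (nearest 2.59). In resistant cells, Anxa10 was 204 in line #7 (nearest 3.99). The remaining values lie under 3 reads: Tff3 was 1.03 in resistant cells of line #7 and Agr2 was 1.27 in those of line #9, all other resistant samples being at 0.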

How the results depend on the processing

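The count of 4 members called in resistant vs parental cells was 2 with a pseudocount of 8, 1 with no filter on low values, 1 without trend, and 0 to 3 when 1 line was left out. With the replicate block it was 6, with the block and a line left out 4 to 5, and with the block and the compared states alone 3. Over all genes tested, 527 were called lower in the main fit, 485 with a pseudocount of 8, 458 with no filter and 502 without trend. When 1 line was left out that number was 243 to 657. With the block it was 1081, with the block and a line left out 631 to 1053, and with the block and the compared states alone 411. The block changed no call in the other 3 comparisons of states. The count of 3 members differing between lines was 1 with a pseudocount of 8, 1 without trend, 6 at an adjusted p under 0.05, 0 without P5 of lines #7 and #9, and 1 to 3 when 1 line was left out. Over all genes tested, 1528 differed in the main fit, 1438 with a pseudocount of 8, 1208 without trend and 4679 at an adjusted p under 0.05. Without P5 of lines #7 and #9 the number was 436, and with 1 line left out 350 to 1299. The count of 0 members called in P12 vs parental cells was 1 with the block and line #9 left out and 1 with the block and line #10 left out. Of all genes tested, 114 and 18 were called lower in these fits. The cause of these changes was not tested.

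Estimates that changed sign belonged to Tff2, Anxa10, Muc1 and Vsig1 in P5 vs resistant cells and to Agr2 in P12 vs parental cells, none of them called. For Tff2 (-0.13) the estimate was 0.019 with a pseudocount of 0.5, 0.78 without P5 of lines #7 and #9, 0.54 with the block and line #7 left out, and -0.81 to 0.26 when 1 line was left out (0.13 without line #9). Without P5 of lines #7 and #9, Anxa10 was at -0.41 and Muc1 at -0.104. When 1 line was left out, Anxa10 ranged from -0.091 to 3.62 and Vsig1 from -1.58 to 2.61 (-0.82 without line #4). For Agr2 in P12 vs parental cells the range was -0.87 to 0.68 (-0.14 and -0.19 without lines #3 and #4), and with the block it was -0.14, -0.19 and -0.87 without lines #3, #4 and #10. Of the other alternatives for single members, 792 kept direction and call, 34 lost a call and 14 gained one. Values under 2.32 to 4.07 normalized counts rest on about 3 estimated reads or fewer.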

Other observations

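Some gastric genes that are not members stood far above their parental level in P12 cells of line #10. They were chosen after their values were seen, each value is 1 sample, and no test was made. Muc5ac, the mucin of gastric pit cells, was 1040 normalized counts in parental, 0 in resistant and 63563 in P12 cells of this line, and in line #7 it was 6117 in parental, 6.58 in resistant, 30351 in P5 and 2874 in P12 cells. Gkn2, a peptide of gastric surface cells, was 52.3, 14.2 and 12349 in parental, resistant and P12 cells of line #10. Other gastric genes of the lists stayed below their parental level in P12 cells of this line. Cldn18 was 149 against 204 in parental cells, and Aqp5 57.5 against 4332.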
